A study of Mus musculus with 44 samples.

Results

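The genes described here are 9 markers of lymphocytes. Cd79a, Cd79b and Ms4a1 mark B cells and Jchain plasma cells, Cd3e, Cd3g and Cd8a mark T cells, and the granzymes Gzma and Gzmb mark cytotoxic lymphocytes. They were chosen by name, and each of the 9 symbols matched 1 of the 55416 genes in the count data through its Ensembl identifier. Their RNA was measured in whole tissue homogenates of small intestine, liver and brain of C57BL/6J mice of about 2 months. The manganese (Mn) animals were given the tetrahydrate of manganese chloride, at about 50 mg for each kg of weight every day, and the vehicle animals received the vehicle. Neither group carried a transgene or deletion per the labels. How and for how long the doses were given is not stated in the labels. There were 8 Mn animals (3 female, 5 male) and 7 vehicle animals (3 female, 4 male), each a separate mouse that is named by its number below. Liver and brain had 8 Mn and 7 vehicle libraries each, and small intestine had 7 Mn and 7 vehicle libraries, since the intestine of Mn animal 2601 was not analysed here.

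B cells carry an antigen receptor whose signalling chains are CD79A and CD79B, and mature B cells show CD20, the product of Ms4a1. Plasma cells of the gut wall secrete dimeric IgA, which the joining chain from Jchain holds together and which the receptor PIGR carries across the epithelium into the lumen. T cells signal through the CD3 chains, among them those of Cd3e and Cd3g, and CD8A marks the T cells that recognise class I MHC. The small intestine holds many CD8+ lymphocytes within its epithelium, the intraepithelial lymphocytes, which store granzymes, proteases that are released into target cells. In healthy mice, IgA plasma cells and intraepithelial lymphocytes make the small intestine one of the richest sites of lymphocytes in the body, while liver holds fewer of them and brain tissue very few.

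Libraries were made by 3′ TagSeq, in which each read comes from near a transcript's poly(A) tail, and held 1796385 to 3798810 reads assigned to genes. Levels are given as CPM, the reads of a gene scaled to a common library total after TMM scaling within each tissue. At the median depth 10 reads correspond to about 4.01 CPM, and values below that carry a large counting error. In whole tissue, fewer cells of a type and less RNA per cell cannot be told apart. The tissues fitted their labels. The brain gene Snap25 was at 1337 to 1962 CPM in brain and at most 44.8 CPM elsewhere. A list of 10 hepatocyte genes summed to 44697 to 57110 CPM in liver, and to 4497 to 6620 CPM in small intestine. A list of 12 enterocyte genes summed to 16918 to 25488 CPM in small intestine. The enterocyte list was also read outside the intestine, at 210 to 1477 CPM in liver and at 7.61 to 1064 CPM in brain. In liver much of it was Apoa4 and Fabp2. They averaged 191 and 110 CPM of a list mean of 429 CPM in Mn livers. In vehicle livers they averaged 278 and 137 CPM of 662 CPM. Neither list is therefore read in its own tissue alone. In brain, Mn animals 2576 (1064 CPM) and 2600 (684 CPM) stood above all others. In the numbering of the deposited libraries these 2 brain libraries have the numbers 8 and 16. Number 8 stands between small intestine libraries, and number 16 between a small intestine and a liver library. The brain of Mn animal 2577, number 24, stands between liver libraries and held 27.0 CPM of the enterocyte list. The part of this order in these values was not tested. In small intestine and in liver the vehicle libraries and the Mn libraries have separate stretches of these numbers, so that treatment and any batch that follows them cannot be told apart. The vehicle brain libraries have the numbers 97 to 103 and every Mn brain library lies outside that stretch, so the same limit holds for brain. The animals fall into the number runs 2572 to 2578 and 2600 to 2630, each with animals of both groups, and values within each run are given where a result could turn on it.

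The levels of several pairs of these genes varied closely together from one small intestine to the next, as given further on. Of the 21 pairs, the 2 with the highest Pearson's r were picked for their sequences after the values were seen, and other pairs were nearly as close. They are Cd3e with Cd3g, which both lie on chromosome 9, and Gzma with Gzmb, on different chromosomes. Their promoters, from 250 bases before to 50 bases after the gene start, are shown so that what each pair shares in sequence can be seen. The sequences are RefSeq's for GRCm38.p6, all on the minus strand, at chr9:45009562-45009861 (Cd3e), chr9:44980382-44980681 (Cd3g), chr13:113100932-113101231 (Gzma) and chr14:56262285-56262584 (Gzmb). Capitals mark CACCTG, an E-box of the kind that E proteins bind, in the CD3 genes, and TGTGGT or its reverse complement ACCACA, a core of the sites that RUNX factors bind, in the granzyme genes.
Cd3e promoter: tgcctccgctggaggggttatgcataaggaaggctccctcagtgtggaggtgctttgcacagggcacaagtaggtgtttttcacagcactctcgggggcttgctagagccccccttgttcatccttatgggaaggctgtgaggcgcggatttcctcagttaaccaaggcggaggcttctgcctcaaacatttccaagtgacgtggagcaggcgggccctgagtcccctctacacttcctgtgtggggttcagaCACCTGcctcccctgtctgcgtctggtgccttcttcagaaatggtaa
Cd3g promoter: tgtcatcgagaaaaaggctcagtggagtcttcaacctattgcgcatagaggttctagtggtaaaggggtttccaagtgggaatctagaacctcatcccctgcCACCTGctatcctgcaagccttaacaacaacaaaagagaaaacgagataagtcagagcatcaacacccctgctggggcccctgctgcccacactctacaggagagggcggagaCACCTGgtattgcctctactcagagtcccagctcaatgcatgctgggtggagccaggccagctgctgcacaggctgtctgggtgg
Gzma promoter: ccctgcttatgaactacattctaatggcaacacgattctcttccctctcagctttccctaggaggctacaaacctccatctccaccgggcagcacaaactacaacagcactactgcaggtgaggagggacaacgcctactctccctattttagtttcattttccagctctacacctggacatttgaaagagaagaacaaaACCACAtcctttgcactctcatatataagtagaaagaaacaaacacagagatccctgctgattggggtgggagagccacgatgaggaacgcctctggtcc
Gzmb promoter: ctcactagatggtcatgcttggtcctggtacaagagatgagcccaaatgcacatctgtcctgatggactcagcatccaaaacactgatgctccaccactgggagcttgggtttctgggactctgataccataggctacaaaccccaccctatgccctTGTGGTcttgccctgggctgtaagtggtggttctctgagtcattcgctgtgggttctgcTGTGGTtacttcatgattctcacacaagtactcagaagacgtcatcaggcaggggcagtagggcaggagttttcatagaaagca
The Cd3g promoter holds CACCTG at 2 places and the Cd3e promoter at 1, all on the sense strand. The Gzmb promoter holds TGTGGT at 2 places on the sense strand, starting 93 and 34 bases before the gene start, and the Gzma promoter holds it once on the antisense strand. Promoters were found for 7 of the 9 genes. Among these 7, CACCTG on either strand occurred in 5 (Jchain, Cd79a, Cd3g, Cd3e and Gzma) and TGTGGT in 2 (Gzma and Gzmb). Of all 32851 promoters of the same length, 20.2% hold CACCTG and 16.8% TGTGGT. Both of these motifs were picked after the letters had been read. The octamer ATGCAAAT, known from immunoglobulin promoters, occurred on either strand in 0 of the 7 and in 1.74% of all promoters. A match of this kind is a description of letters and shows no binding.

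Without Mn, 7 of the 9 lymphocyte genes were far higher in small intestine than in liver, while Ms4a1 was lower there. Jchain averaged 1144 ± 425 CPM in vehicle small intestine and 27.5 ± 31.7 CPM in vehicle liver, and Gzma averaged 262 ± 35.7 and 6.03 ± 7.88 CPM there (SD, n = 7 each). Gzmb was at 27.9 ± 4.93 CPM in vehicle small intestine and 1.04 ± 0.58 CPM in vehicle liver. The CD3 chains and CD8A followed the same order. Cd3g was at 21.5 ± 6.07 and 1.53 ± 0.91 CPM, Cd8a at 16.7 ± 2.50 and 0.44 ± 0.36 CPM, and Cd3e at 13.9 ± 4.13 and 0.92 ± 0.67 CPM in vehicle small intestine and vehicle liver. Cd79b differed least of the genes tested, with 11.6 ± 3.46 CPM in vehicle small intestine and 3.41 ± 1.05 CPM in vehicle liver. Levels of different tissues were scaled within each tissue, and the test came from 1 fit of all 44 libraries.

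All 7 of the 9 genes that passed the filter on low counts passed as higher in vehicle small intestine than in vehicle liver in edgeR's quasi-likelihood test with Benjamini-Hochberg adjustment over all genes. Of the 14984 genes tested, 68% differed between these tissues and 34.2% were higher in small intestine. Being called therefore says little here, and the size of the difference says more. The log2 difference was 5.17 ± 0.30 (SE) for Gzma, 4.92 ± 0.47 for Jchain, 4.65 ± 0.38 for Cd8a and 4.21 ± 0.30 for Gzmb. It was 3.38 ± 0.37 for Cd3e, 3.34 ± 0.31 for Cd3g and 1.27 ± 0.28 for Cd79b, and the adjusted p of the 7 genes lay between 1.99e-19 and 0.00012 (edgeR). Each of these 7 genes was higher in small intestine than in liver in 7 of 7 vehicle animals and in 7 of 7 Mn animals. The median log2 difference over these 7 genes was 4.21, against 0.01 over all genes tested. This median is partly fixed by the filter. Cd3e, Cd3g, Cd8a, Cd79b, Gzma and Gzmb did not pass it among the livers alone. They passed it here through their small intestine libraries, and only Jchain passed it in liver as well. The genes it dropped were Cd79a and Ms4a1, and Ms4a1 was lower in small intestine, as given below.

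Ms4a1, the gene of the B cell surface protein CD20, ran the other way. It had 2 reads in all 7 vehicle small intestines together and 23 reads in the 7 vehicle livers, a ratio of read shares of 0.0768 (exact 95% interval 0.00877 to 0.311, which covers counting error only). It was lower in small intestine than in liver in 7 of 7 vehicle animals and in 5 of 7 Mn animals. In the fit without the low-count filter, added after the data were seen, 11314 of 29921 genes differed between these tissues. Ms4a1 was among them, with an adjusted p of 6.8e-06 (edgeR) from these same few reads, so that being called says little here too. Cd79a, the partner chain of Cd79b, stood at 2.34 ± 1.68 CPM in vehicle small intestine and 0.82 ± 0.77 CPM in vehicle liver (SD, n = 7 each), and did not pass in that fit (log2 difference 0.88 ± 0.52, adjusted p = 0.205). Cr2, a complement receptor of mature B cells that was named after its values were seen, was as scarce. It had 1 read in all Mn and 0 reads in all vehicle small intestines. The summed list of B cell genes, described further on, had the higher mean in small intestine. It averaged 80.0 CPM in vehicle small intestine (61.4 to 97.1) and 56.2 CPM in vehicle liver (26.8 to 84.7), with overlapping ranges. Of the list's genes, 6 passed the filter among the small intestines and 2 among the livers. The difference in these sums was not tested. Brain had the lowest levels: Cd3e, Cd3g, Cd8a, Gzmb and Ms4a1 were at 0 reads in all 7 vehicle brains, which allows up to 1.57 CPM in the shallowest of them (3 reads).

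**Figure D1:**
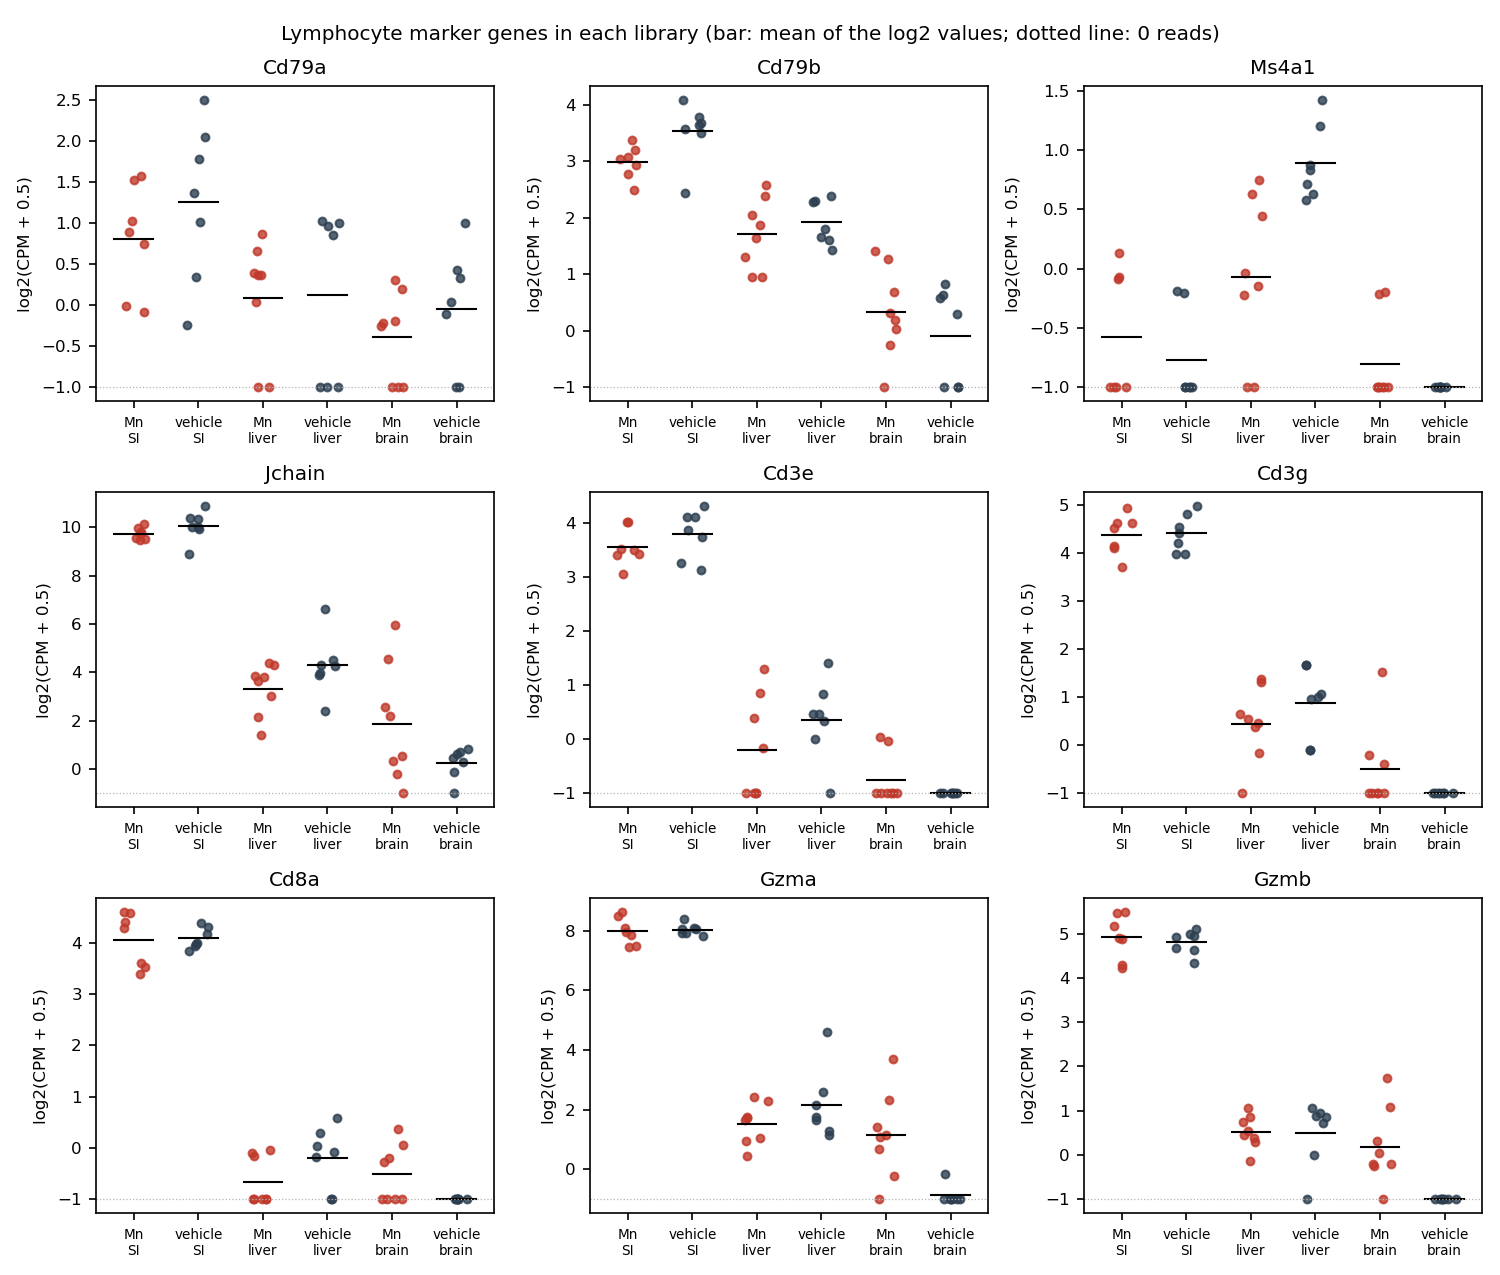
Level of each of the 9 genes in each library on a log2(CPM + 0.5) axis (vertical), by tissue and treatment (horizontal; SI, small intestine; red points Mn, dark points vehicle; black bars, mean of the log2 values; dotted line, 0 reads). Jchain, Gzma, Gzmb, Cd3e, Cd3g and Cd8a are higher in every small intestine than in any liver, and the Mn and vehicle points overlap in small intestine for each of the 9 genes.

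In small intestine, none of the 7 genes tested passed the threshold between Mn and vehicle animals, where 54 of 11770 genes did (0.459%, edgeR). DESeq2 and limma-voom also called 0 of the 7, and at an unadjusted p below 0.05 there was 1, Cd79b, against 12.2% of all genes tested. Cd79b and Jchain, of the B lineage, had lower means in Mn animals, as did the T cell gene Cd3e to a lesser degree. Gzma and Cd8a had nearly equal means, and the mean of Gzmb was 1.13 times as high in Mn as in vehicle animals. The median log2 change, Mn over vehicle, was −0.03 over these 7 genes and −0.01 over all genes.

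Cd79b, a signalling chain of the B cell receptor, had a lowest, median and highest level of 5.10, 7.69 and 9.88 CPM in Mn small intestines, against 4.93, 12.1 and 16.4 CPM in vehicle small intestines. Of the 7 vehicle libraries 6 lay above all 7 Mn libraries, and vehicle animal 2573 lay below all of them. The mean was 7.53 ± 1.56 CPM in Mn and 11.6 ± 3.46 CPM in vehicle animals (SD, n = 7 each), from 130 and 211 reads in all. The log2 change was −0.61 ± 0.21 (SE; 95% interval −1.04 to −0.17) with an adjusted p of 0.213 in edgeR's quasi-likelihood test. Within the animals 2572 to 2578 it was −0.71 and within the animals 2600 to 2630 it was −0.50.

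Jchain, which holds the IgA dimer together, had a lowest, median and highest level of 711, 866 and 1116 CPM in Mn small intestines, against 469, 1041 and 1867 CPM in vehicle small intestines. The Mn libraries all lay within the vehicle range, whose ends were vehicle animals 2573 and 2630, and 6 of 7 Mn libraries lay below the vehicle median. The mean was 866 ± 148 CPM in Mn and 1144 ± 425 CPM in vehicle animals (SD, n = 7 each). The log2 change was −0.41 ± 0.20 (SE; 95% interval −0.82 to 0.0043), with an adjusted p of 0.415 (edgeR), and it was −0.24 and −0.51 within the lower and the higher run of animal numbers. A single library decides both calls: without vehicle animal 2573 the log2 change was −0.74 for Cd79b (adjusted p = 0.0478, edgeR) and −0.55 for Jchain (adjusted p = 0.0467). That animal was the lowest vehicle library for both genes, so that leaving it out must enlarge the difference. Over the 14 fits that each left out 1 library, the change reached −0.52 for Cd79b and −0.24 for Jchain. Adjusted p reached 0.401 and 0.685 (edgeR), and 12 to 120 of all genes were called. In the fit without the low-count filter, where 521 of 25178 genes passed, Jchain passed with −0.41 ± 0.09 and an adjusted p of 0.000578 (edgeR). Its reads lie far above the filter in either fit. The estimate was the same and only its SE was smaller, so that this pass is no further support.

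Cd79a, the other signalling chain of the B cell receptor, and Ms4a1 fell below the filter in small intestine. Cd79a had 26 reads in the 7 Mn libraries (0.44 to 2.47 CPM, mean 1.41 ± 0.81) and 42 reads in the 7 vehicle libraries (0.34 to 5.13 CPM, mean 2.34 ± 1.68), with overlapping ranges. Ms4a1 had 4 reads in Mn and 2 reads in vehicle libraries, and 4 of 7 Mn and 5 of 7 vehicle libraries had none.

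The T cell genes did not separate the groups. Cd3e, a chain of the T cell receptor complex, ran from 7.85 over a median of 10.9 to 15.8 CPM in Mn and from 8.32 over 14.1 to 19.4 CPM in vehicle small intestines, with a log2 change of −0.26 ± 0.21 (95% interval −0.69 to 0.17). Cd3g, its partner chain, ran from 12.6 over 22.4 to 30.2 CPM in Mn and from 15.2 over 20.9 to 30.9 CPM in vehicle animals, with −0.03 ± 0.19 (−0.43 to 0.36). Cd8a ran from 9.95 over 19.0 to 23.7 CPM in Mn and from 13.9 over 15.4 to 20.4 CPM in vehicle animals, with 0.02 ± 0.19 (−0.39 to 0.42). For Cd8a, 3 Mn libraries lay below and 3 above every vehicle library, so that the Mn group was the wider one, with a coefficient of variation of 35.48% in Mn and 15.02% in vehicle animals. Adjusted p was 0.664, 0.968 and 0.988 for Cd3e, Cd3g and Cd8a (edgeR), and the intervals reach from −0.69 to 0.42 on the log2 scale.

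The granzymes showed the same wider spread in Mn animals, and neither passed the test between the groups. Gzma, a protease of cytotoxic granules, ran from 175 over 249 to 390 CPM in Mn and from 224 over 262 to 334 CPM in vehicle small intestines, with means of 264 ± 83.1 and 262 ± 35.7 CPM (SD, n = 7 each). Gzmb, the other granule protease, ran from 18.1 over 29.4 to 44.5 CPM in Mn and from 19.8 over 30.0 to 34.0 CPM in vehicle animals, with means of 31.4 ± 10.7 and 27.9 ± 4.93 CPM. The log2 change was 0.01 ± 0.15 (95% interval −0.31 to 0.33, adjusted p = 0.988) for Gzma and 0.14 ± 0.19 (−0.25 to 0.54, adjusted p = 0.819) for Gzmb in edgeR's test. Mn animals 2576 and 2602 were the 2 highest for both granzymes, and Mn animals 2575 and 2578 the 2 lowest. Coefficients of variation were 31.5% in Mn and 13.6% in vehicle animals for Gzma and 34.0% and 17.7% for Gzmb. Cd8a and the granzymes vary together, as given below, and the other tested genes did not share the wider spread. For Jchain it was 17.1% in Mn and 37.1% in vehicle animals, and for Cd79b 20.6% and 29.9%. For Cd3e it was 25.9% and 29.7%, and for Cd3g 28.0% and 28.2%. The difference in spread was not tested.

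**Figure D2:**
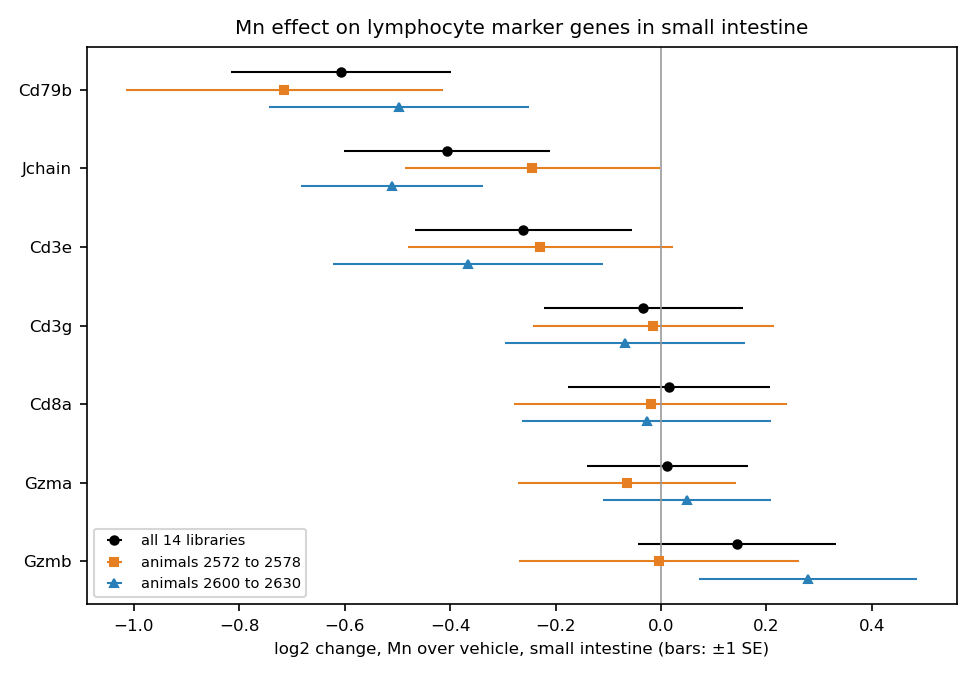
Log2 change, Mn over vehicle, in small intestine (horizontal axis) for the 7 genes tested (vertical axis), over all 14 libraries (black circles) and within each run of animal numbers (orange squares and blue triangles); bars are ±1 SE. Cd79b (−0.61), Jchain (−0.41) and the T cell gene Cd3e (−0.26) lie below 0 in the whole set and in both runs. Gzma (0.01), Cd8a (0.02) and Cd3g (−0.03) lie near 0.

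Between individual small intestines, Cd8a and the granzymes varied together, so did the CD3 chains, and Cd3g also varied with Gzma and with Jchain. Further pairs, among them CD3 chains with B lineage genes, passed at a lower r. Pearson's r was taken over the 14 libraries on log2 CPM after the mean of each treatment group had been subtracted, for all 21 pairs of the 7 genes, with permutation p-values (two-sided) adjusted over the 21 pairs. Gzma and Gzmb varied together with r = 0.85 and Spearman's rho = 0.78 (permutation p = 0.00014 and 0.00158, adjusted 0.00168 and 0.00924). Cd8a varied with both of them, with r = 0.80 for Gzma and 0.79 for Gzmb (adjusted permutation p = 0.00294 and 0.00344; rho = 0.78 and 0.75, both adjusted 0.00924). Cd3e and Cd3g varied together with r = 0.82 and rho = 0.76 (adjusted permutation p = 0.00294 and 0.00924). Cd3g also varied with Gzma, with r = 0.77 and rho = 0.75 (adjusted permutation p = 0.00353 and 0.00924). Each of these 5 correlations kept a value of at least 0.76 when the 2 libraries farthest from the median were left out. At a lower r, Cd3g passed with Cd8a (0.65) and Cd79b (0.64), and Cd3e with Jchain (0.64), Cd79b (0.62) and Gzma (0.61). Their adjusted permutation p lay between 0.0222 and 0.0351. Without the 2 farthest libraries r was 0.56 for Cd3g with Cd8a and fell to 0.45 for Cd3g with Cd79b. For Cd3e with Jchain, Cd79b and Gzma it was 0.76, 0.75 and 0.76. Within the lower and higher runs of animal numbers r was 0.77 and 0.34 for Cd3e with Cd79b, the lowest of these pairs in the higher run. For Cd3e with Gzma rho was 0.52 (adjusted permutation p = 0.0876).

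Within the lower and higher runs of animal numbers (7 libraries each), r was 0.98 and 0.64 for Gzma with Gzmb, 0.96 and 0.64 for Cd8a with Gzma, 0.86 and 0.74 for Cd3e with Cd3g, and 0.76 and 0.78 for Cd3g with Gzma. Jchain varied with the T cell gene Cd3g, with r = 0.78 and rho = 0.93 (adjusted permutation p = 0.00168 and 0.00021), and r was 0.63 and 0.89 within the runs. Cd79b and Jchain had r = 0.81 and rho = 0.76 (adjusted permutation p = 0.00657 and 0.00924), but r fell to 0.42 without the 2 farthest libraries, so that this relation rests on those samples. Between the B lineage and the granzymes no Pearson correlation passed. It was r = 0.00 for Cd79b with Gzmb (adjusted permutation p = 0.996), 0.24 for Cd79b with Gzma (0.445) and 0.17 for Jchain with Gzmb (0.598). Jchain with Gzma had r = 0.44 (adjusted permutation p = 0.175), but rho was 0.69 (adjusted 0.0192). That r was 0.71 without the 2 farthest libraries, and 0.14 and 0.75 within the lower and the higher run.

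**Figure D3:**
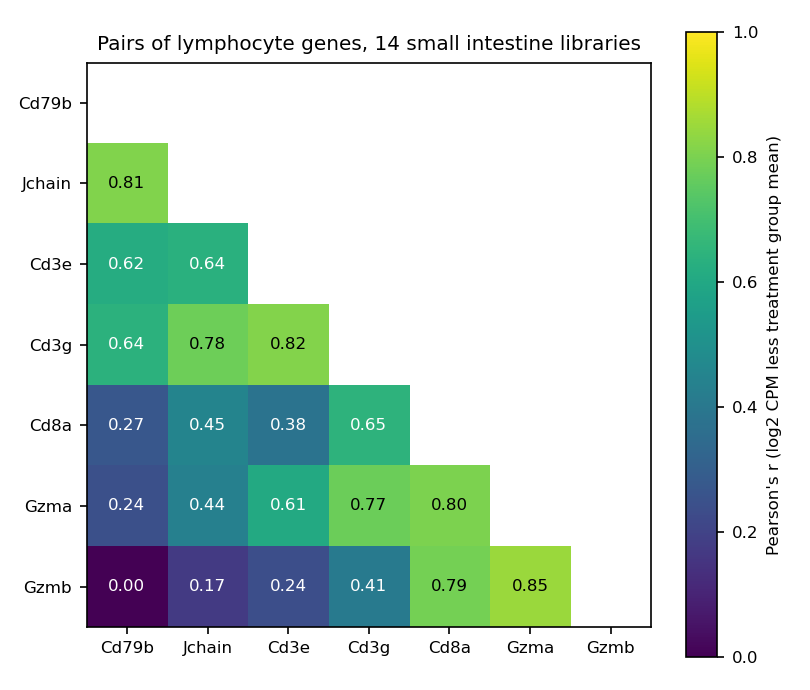
Pearson's r between each pair of the 7 genes over the 14 small intestine libraries (both axes list the genes; colour from 0 to 1), on log2 CPM after subtraction of the treatment group mean. Cd8a, Gzma and Gzmb form one block (0.79 to 0.85), Cd3g is close to Cd3e (0.82), Jchain (0.78) and Gzma (0.77), and Cd79b with Gzmb is at 0.00. Cd79b is also at 0.64 with Cd3g and 0.62 with Cd3e, and Jchain at 0.64 with Cd3e.

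Among 10787 genes with a mean of at least 5 CPM, the 3 most like each of Jchain, Gzma, Cd3e and Cd79a over the same 14 libraries were taken by Pearson's r, as a description. Igha, the constant region of the IgA heavy chain, was most like Jchain (r = 0.97, rho = 0.97), followed by Gusb (0.86) and Fxyd5 (0.85). Cd7, a surface protein of T and natural killer cells, was most like Gzma (r = 0.96, rho = 0.93), followed by Kctd11 (0.88) and Tbc1d13 (0.85). Tspyl4 (r = 0.83), Cd3g (0.82) and Rinl (0.80) were most like Cd3e. Sparc, a matrix protein of stromal cells, was most like Cd79a (r = 0.92), followed by Mgll (0.92) and Ppm1e (0.91); Cd79a rests on 1 to 14 reads per library. For Gusb rho was 0.39 against an r of 0.86, so that its likeness to Jchain rests on a few libraries.

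In small intestine Jchain kept a nearly fixed proportion to Igha. The reads of Jchain came to 17.1 to 20.5% of the reads of Igha in Mn small intestines (mean 18.9 ± 1.42) and to 15.5 to 21.6% in vehicle small intestines (18.7 ± 1.80; SD, n = 7 each), a ratio of reads and not of molecules. Igha itself averaged 4612 ± 887 CPM in Mn and 5995 ± 1759 CPM in vehicle small intestines, with a log2 change of −0.38 ± 0.18 and an adjusted p of 0.401 (edgeR). In liver the same ratio was 11.9 to 27.3% in Mn and 11.5 to 17.8% in vehicle animals. In brain it was 0 to 33.3% in Mn animals (median 15.8) and 0 to 300% in vehicle animals (median 60%), where no vehicle brain had more than 3 reads of Jchain or 9 of Igha. The gene of the kappa light chain constant region, Igkc, was listed at 0 reads in all 44 libraries, and no result is drawn from it.

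**Figure D4:**
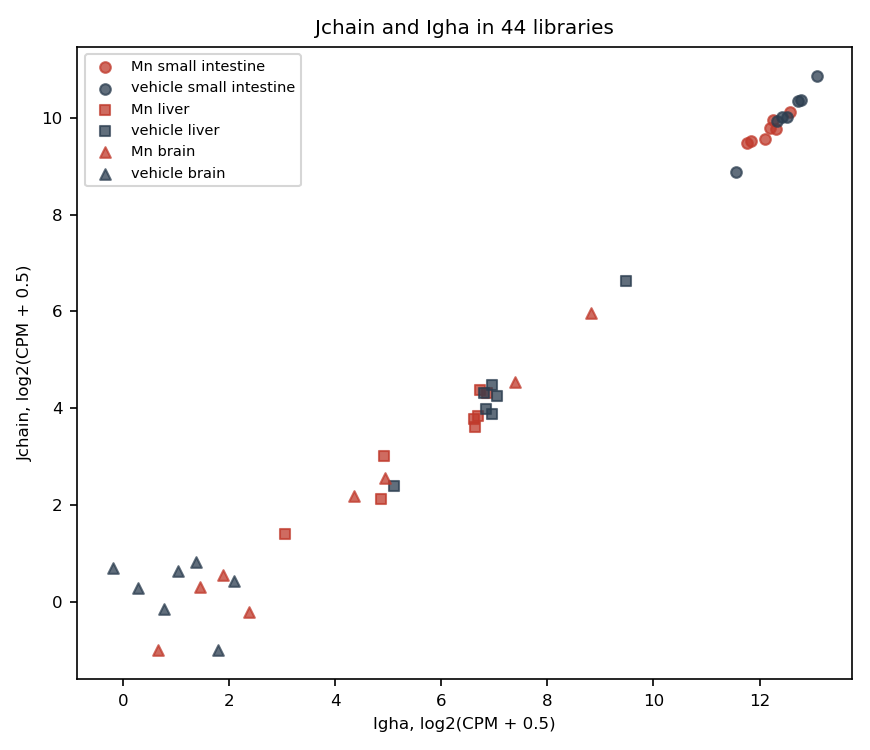
Jchain against Igha in each of the 44 libraries, both on log2(CPM + 0.5) axes, with circles for small intestine, squares for liver and triangles for brain (red, Mn; dark, vehicle). The small intestine and liver libraries and the brains with the most Igha lie along one band and the other brains scatter at 0 to 3 reads of Jchain, with vehicle liver 2630 (98.3 CPM of Jchain) and Mn brain 2576 (62.0 CPM) above the other libraries of their tissue.

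Lists of further genes of the same cells give the context in small intestine. They are not independent evidence, since they were chosen with earlier results of these data known. Of 18 B cell genes 6 were tested, none passed, and all 6 log2 changes were negative (median −0.29). They included Ighm, the IgM heavy chain, at 23.7 ± 3.51 CPM in Mn and 33.0 ± 9.68 CPM in vehicle animals (−0.48 ± 0.16, adjusted p = 0.189, edgeR), and Ly6d (−0.33 ± 0.18). Of 16 plasma cell and antibody genes 14 were tested, none passed and 13 were negative (median −0.30). Pigr, the receptor that carries IgA into the lumen, was at 3756 ± 450 CPM in Mn and 3866 ± 451 CPM in vehicle animals. Of 23 T cell genes 17 were tested, none passed and 16 were negative (median −0.27). Trbc2, a constant region of the T cell receptor, was at 24.2 ± 5.95 and 25.4 ± 6.21 CPM and Skap1 at 18.5 ± 4.28 and 22.5 ± 9.41 CPM in Mn and vehicle animals. Of 24 genes of intraepithelial and cytotoxic lymphocytes 12 were tested, none passed and 9 were negative (median −0.16). The chemokine gene Ccl5 was at 149 ± 42.8 and 177 ± 37.0 CPM and the adhesion protein gene Jaml at 117 ± 12.5 and 114 ± 20.9 CPM in Mn and vehicle animals. Over all 11770 genes tested, 52.3% of the log2 changes were negative.

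The 7 tested genes of germinal centres, follicles and M cells were all negative (median −0.39) and none passed. They included Bcl6, the transcription factor of germinal centre B cells, at 15.7 ± 4.799 CPM in Mn and 24.8 ± 4.16 CPM in vehicle animals (−0.66 ± 0.15, adjusted p = 0.06, edgeR), and Ccl20, a chemokine of the epithelium over follicles, at 11.8 ± 3.88 CPM in Mn and 21.9 ± 10.01 CPM in vehicle animals (−0.86 ± 0.26, adjusted p = 0.145). In the macrophage and dendritic cell list 12 of 17 genes were tested, 11 were negative, and 1 fell. This was C1qb, a subunit of complement C1q, at 57.0 ± 9.53 CPM in Mn and 82.3 ± 10.7 CPM in vehicle animals (−0.52 ± 0.11, adjusted p = 0.0374). Of 14 genes of chemokines and factors that attract or keep lymphocytes 12 were tested, none passed and 9 were negative (median −0.22). Ccl25, which draws lymphocytes to the small intestine, was at 743 ± 68.7 and 653 ± 96.5 CPM, and Aldh1a1, an enzyme of retinoic acid synthesis, at 220 ± 60.2 and 156 ± 50.1 CPM in Mn and vehicle animals.

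Genes of other cell types of the intestinal wall stood as follows beside these lists. The 12 enterocyte genes were all positive (median 0.14, none passed) and summed to 19222 to 25488 CPM in Mn and 16918 to 21345 CPM in vehicle small intestines. The 11 genes of gut muscle and stroma were negative in 10 cases (median −0.15, none passed), with sums of 1070 to 1602 CPM in Mn and 1229 to 1994 CPM in vehicle animals. Acinar genes of the pancreas summed to 77.5 to 301 CPM in Mn small intestines and to 192 to 12225 CPM in vehicle small intestines, the highest in vehicle animal 2627. With the mean of the acinar list as a covariate the log2 change was −0.60 ± 0.27 for Cd79b and −0.50 ± 0.25 for Jchain. With the muscle and stroma list, a covariate added after the data were seen, it was −0.42 ± 0.24 for Cd79b and −0.33 ± 0.24 for Jchain. The part of these cell types in the lower Cd79b and Jchain means was not tested further.

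In liver, 1 of the 9 genes, Jchain, passed the filter on low counts, and it did not pass the test; 127 of 10536 genes did (1.21%). Jchain had a lowest, median and highest level of 2.15, 12.5 and 20.2 CPM in Mn livers, against 4.79, 18.7 and 98.3 CPM in vehicle livers. Vehicle animal 2630 stood far above the other 14 livers, and the mean was 11.5 ± 6.62 CPM in Mn livers (SD, n = 8) and 27.5 ± 31.7 CPM in vehicle livers (n = 7), or 15.7 ± 6.05 CPM in vehicle livers without it (n = 6). The log2 change over all 15 livers was −1.23 ± 0.52 with an adjusted p of 0.224 (edgeR). Its unadjusted p was below 0.05, as was that of 18% of all genes. Within the runs of animal numbers it was −0.21 for 2572 to 2578 and −2.14 for 2600 to 2630, which holds animal 2630. Without that animal's liver it was −0.41. In the fit without the low-count filter, where 519 of 23544 genes passed, Jchain passed with −1.20 ± 0.26 and an adjusted p of 0.00157 (edgeR). Its estimate was near that with the filter, from the same reads, and its SE was smaller. In that fit without animal 2630, where 586 of 23312 genes passed, Jchain did not pass (−0.39 ± 0.18, adjusted p = 0.371, edgeR).

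Jchain in liver varied with the enterocyte list. The list's sum was 210 to 600 CPM in Mn livers and 296 to 1477 CPM in vehicle livers, with the highest value in vehicle animal 2630. At the low end, 1 of its 12 genes was at 0 reads in Mn animal 2601. The 4 livers with the least Jchain, those of Mn animals 2601, 2602 and 2603 and vehicle animal 2627, were also the 4 with the least of the enterocyte list. Over the 15 livers the 2 measures had r = 0.979 and rho = 0.864 on the log2 scale (permutation p = 1e-05, the smallest that 100000 permutations can give, and 0.0001; adjusted 1.5e-05 and 0.00015 over 3 relations). It was r = 0.938 without the 2 farthest livers and r = 0.60 and 0.99 within the lower and the higher run. For Igha r was 0.978 (adjusted permutation p = 1.5e-05). With the list as a covariate, added after the data were seen, the log2 change of Jchain was −0.16 ± 0.15 (adjusted p = 0.607, edgeR). Gzma had r = 0.659 with the list (adjusted permutation p = 0.0148), but rho was 0.211 (adjusted 0.451) and r fell to 0.07 without the 2 farthest livers, so that this relation rests on those samples.

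The remaining genes were at a few reads per liver. Ms4a1 had 10 reads in the 8 Mn livers (0 to 1.18 CPM) and 23 reads in the 7 vehicle livers (0.997 to 2.18 CPM), and 6 of 8 Mn livers lay below all vehicle livers. The ratio of read shares was 0.363 (exact 95% interval 0.154 to 0.792, counting error only), and without the low-count filter the log2 change was −1.29 ± 0.58 with an adjusted p of 0.33 (edgeR). Gzma ran from 0.86 to 4.82 CPM in Mn and from 1.70 to 23.6 CPM in vehicle livers, where animal 2630 was again the highest and the other 6 reached 5.48 CPM. Cd79b ran from 1.42 to 5.51 CPM in Mn and from 2.18 to 4.73 CPM in vehicle livers. Cd3e was at 0 reads in all 4 Mn livers of the higher run of animal numbers, where 4 vehicle livers averaged 0.95 CPM, and in the lower run it averaged 1.12 CPM in 4 Mn and 0.89 CPM in 3 vehicle livers.

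In brain none of the 9 genes passed the filter, where 74 of 12872 genes tested were called (0.575%). Jchain ran from 0 over a median of 2.51 to 62.0 CPM in Mn brains, against 0 over 0.85 to 1.27 CPM in vehicle brains, and 4 of 8 Mn brains lay above all vehicle brains. The 2 highest were Mn animals 2576 (62.0 CPM) and 2600 (22.8 CPM), the same that were highest for the enterocyte list. Without both, Mn brains averaged 1.92 ± 2.24 CPM (SD, n = 6). Gzma had 61 reads in Mn and 1 read in vehicle brains, a ratio of read shares of 46.1 (exact 95% interval 7.97 to 1850, counting error only). Of the 8 Mn brains 6 lay above all vehicle brains for Gzma, with animal 2576 the highest at 12.4 CPM (26 reads). Without animal 2576 the ratio was 29.3 (4.92 to 1190), and without 2576 and 2600 it was 18.6 (2.94 to 776). The mean of Gzma in Mn brains was 2.97 CPM (n = 8), 1.62 CPM without animal 2576 and 1.15 CPM without both. Gzmb had 16 reads in Mn and 0 in vehicle brains, at least 4.03-fold higher against a floor of 3 reads over the vehicle group, and 7 of 8 Mn brains held at least 1 read. Without animal 2576 this bound was 2.79-fold, from 10 reads. Without the low-count filter 542 of 26791 genes passed, among them Gzma, Jchain and Gzmb, with adjusted p of 0.000113, 0.0034 and 0.0266 (edgeR). Gzmb, at 0 reads in vehicle brains, entered that fit only through the Mn brains. In that fit Gzmb no longer passed without animal 2576 (adjusted p = 0.0804, edgeR), where 521 of 26607 genes passed. Without 2576 and 2600 Jchain did not pass (0.777), and Gzma passed (0.015), where 398 of 26271 genes did. A list of 10 hepatocyte genes also stood higher in these brains, at 65.4 to 4689 CPM in Mn and 36.1 to 564 CPM in vehicle brains, and the part of reads from other tissues in these values was not tested.

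**Figure D5:**
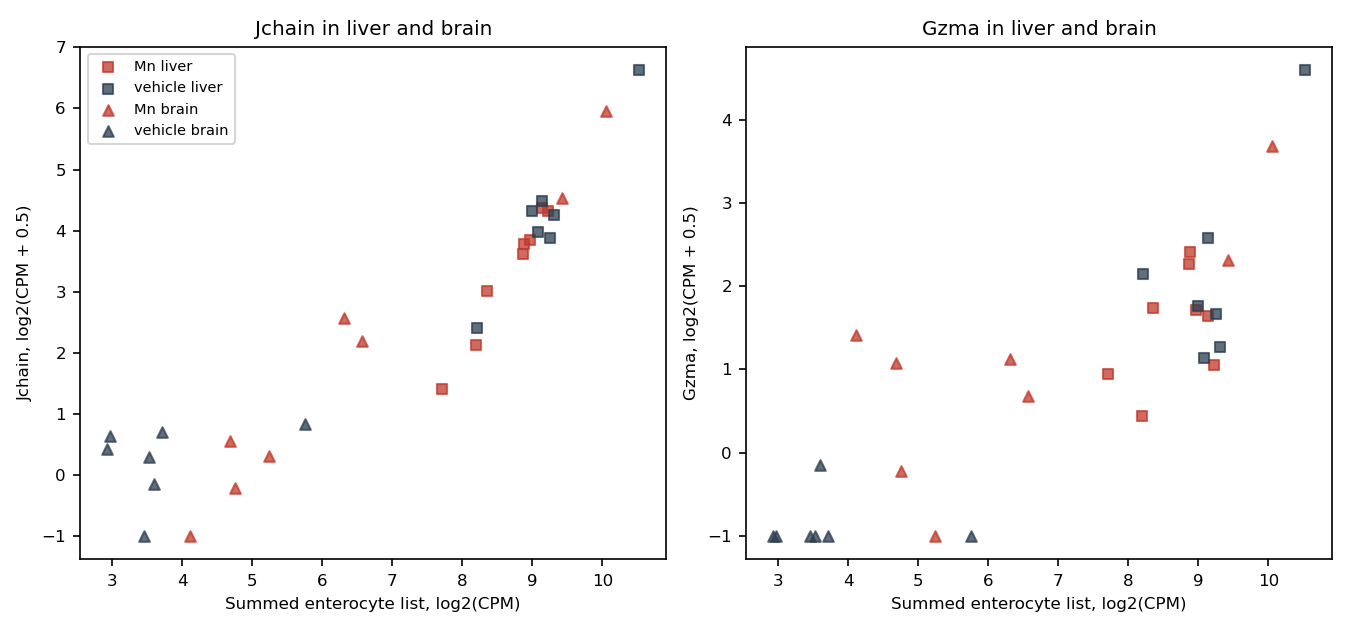
Jchain (left) and Gzma (right) on log2(CPM + 0.5) axes against the summed enterocyte list on a log2(CPM) axis in each liver (squares) and brain (triangles) library; red, Mn, and dark, vehicle. Jchain lies along one line in liver up to vehicle animal 2630 (98.3 CPM), the brains of Mn animals 2576 and 2600 lie at the level of the livers, and Gzma scatters more.

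The Mn effect on these genes was also compared between the sexes and between tissues. In small intestine the sex by treatment term passed for none of the 7 genes (adjusted p of 1 for each, edgeR), and for 0 of 11770 genes (0%), with 324 (2.75%) at an unadjusted p below 0.05, none of them among the 7. In liver the term passed for 4 of 10536 genes (0.038%) and not for Jchain (interaction −2.02 ± 0.99, adjusted p = 0.816). Its log2 change was −0.05 in females and −2.07 in males, who include animal 2630. The difference of the Mn effect, small intestine minus liver, passed for 11 of 14984 genes (0.0734%) and for none of the 7 tested here, with adjusted p of 0.485 to 0.955. The nearest was Gzma, at 1.07 ± 0.51 (adjusted p = 0.485), in a fit that included the liver of vehicle animal 2630. It alone of the 7 had an unadjusted p below 0.05, as did 10.1% of all genes. With the animal as a replicate block, since the tissues came from the same animals, no call of these genes changed.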

How the data were processed

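The authors deposited raw read counts for each gene, 1 table for each library. The submitters' processing notes name STAR 2.7.10b, HTSeq 0.2.0, DESeq2 1.12.3, FastQC 0.12.0 and R 4.2.2, with GRCm39 as the build. Reads that map to several places were not counted (23.8% to 34.8% of records), and neither spike-in nor summary entries entered library sizes. No source used here says whether duplicate reads were removed. Symbols were matched by identifier to a GRCm38 annotation (52083 of 55416).

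Genes were kept by filterByExpr (minimum count 10, minimum total 15), scaled by TMM and tested with edgeR 4.0.16 (quasi-likelihood, sex as covariate, adjusted p below 0.05, two-sided), after a test on simulated data in which 94 of 100 genes changed 2-fold, 60 of 100 changed 1.5-fold and 17 of 11570 unchanged genes were called in small intestine. The comparisons between tissues came from a joint fit over 44 libraries in which each tissue had its own sex term. DESeq2 1.42.0, limma 3.58.1 and the settings named in the closing section were alternatives. No 2 libraries of a group were duplicates (lowest chi-square for each gene 1.47).

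The genes described and all lists were chosen with earlier results of these data known. The text names all 9 genes, the 3 most like 4 of them, and in each list up to 3 passing genes or else the 2 with the highest mean. Cr2, Cd7 as a list gene, Igkc, Snap25 and the 2 motifs were named after their values were seen. Protein sequences were not analysed here, and the promoters of Cd79b and Ms4a1 were not used. Intervals for summed reads and floors cover counting error only.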

Additional observations from a re-analysis of the deposited data

Results flagged for a closer look

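In 5 of 23 groups of libraries whose highest library had at least 10 reads of a gene, 1 library stood far from the rest by Dixon's criterion. Chance alone would give about 1 in 20 such groups if the values were normally distributed and the groups independent. The former was not checked, and the groups share animals and genes that vary together. The count of 5 is therefore not weighed against that rate, and all 5 were Jchain or Gzma in animals 2630 and 2576. Vehicle animal 2630 was the highest liver for Jchain, with 98.3 CPM (187 reads) where the other 6 vehicle livers had 4.79 to 21.9 CPM, and for Gzma, with 23.6 CPM (45 reads) where the others had 1.70 to 5.48 CPM. The same liver held 1477 CPM of the enterocyte list and 0 reads of Cd3e and Cd79a. This animal was also the highest vehicle small intestine for Gzma, with 334 CPM where the others had 224 to 268 CPM. Mn animal 2576 was the highest brain for Jchain, with 62.0 CPM (130 reads) where the other 7 Mn brains had 0 to 22.8 CPM, and for Gzma, with 12.4 CPM (26 reads) where the others had 0 to 4.45 CPM. That brain held 1064 CPM of the enterocyte list. The part of reads from other tissues in these values was not tested.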

How the results depend on the processing

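Among the comparisons of the 9 genes, the count of calls changed under the fit without the low-count filter, which called 1 gene in small intestine, 1 in liver (Jchain in both) and 3 in brain against 0 in each. Without the filter and without Mn animal 2576 it called 2 in brain, without 2576 and 2600 it called 1, and without vehicle animal 2630 it called 0 in liver, all 3 chosen after seeing the data. The cause was not tested. Leaving out 1 library at a time gave 0 to 2 calls in small intestine, with 2 (Cd79b and Jchain) without vehicle animal 2573, and 0 in liver and brain. Of 268 log2 changes under alternatives 233 kept their direction and side of the threshold, 4 passed it and 31 changed sign, all of the 31 for small intestine genes whose change is within 0.15 of 0. For Cd8a the sign turned with no scaling factor (−0.0202), limma-voom (−0.0536), females alone (−0.1259), animals 2572 to 2578 (−0.0198), animals 2600 to 2630 (−0.0273), the acinar covariate (−0.0927) and the muscle and stroma covariate (−0.2385), the last chosen after seeing the data. For Gzma it turned with no scaling factor (−0.0335), limma-voom (−0.0388), males alone (−0.0393), animals 2572 to 2578 (−0.0647), and these covariates (−0.0515 and −0.1942). For Gzmb it turned within animals 2572 to 2578 (−0.0037) and with the muscle and stroma covariate (−0.2289), and for Cd3g with the number run as a covariate (0.0109) and the muscle and stroma covariate (0.0072). Leaving out 1 library gave −0.125 to 0.0769 for Cd3g, −0.1232 to 0.1138 for Cd8a and −0.1123 to 0.1037 for Gzma. The count of all genes called moved more. In small intestine, against 54, it was 521 without the filter, 143 by DESeq2, 11 and 4 in females and males alone, 8 and 147 within the lower and higher number runs, 90 with the run and 0 with the acinar list as a covariate, 8 with the muscle and stroma list, and 12 to 120 without 1 library. In liver, against 127, it was 519 without the filter, 365 by DESeq2, 21 without sex, 7 and 39 in females and males, 198 and 4 within the runs, 292, 32 and 51 with the run, the erythroid list and the enterocyte list as covariates, and 35 to 370 without 1 library. In brain, against 74, it was 542 without the filter, 119 by DESeq2, 48 by limma-voom, 0 and 329 in females and males, 198 and 1607 within the runs, and 30 to 124 without 1 library.

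The tissues of an animal share its number in the labels, and deviations from group means correlated with a median of 0.19 (small intestine with liver), 0.08 (small intestine with brain) and 0.13 (liver with brain) over 9108 genes. For the Mn effect in small intestine minus liver, the fit with the animal as replicate block called 7 genes, against 11 without it, 17 with DESeq2 size factors and 45 without the filter, and called 0 of the 9 genes, as without it. At these depths genes below about 4 CPM, which is most of the 9 in liver and brain, rest on fewer than 10 reads.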
